A study of Mus musculus with 16 samples.

Results

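Dendritic cells selected for Xcr1 and Clec9a RNA were followed in the liver-draining lymph node (LN) of mice on a cholestasis-inducing diet. A cell was chosen by 2 or more unique molecular identifier counts (UMIs) of Xcr1 and Clec9a together, with 0 UMIs of Fscn1, Cd3e, Cd79a and Siglech. The exclusions were meant to remove mature dendritic cells, T cells, B cells and plasmacytoid dendritic cells. The rule selected 155 of the 19543 cells of 3 LN libraries, and the whole series held 53595 cells in 8 RNA libraries. C57BL/6J mice received chow containing DDC (3,5-Diethoxycarbonyl-1,4-Dihydrocollidine) at 0.1%, a compound that injures the bile ducts. D0 mice had no DDC, and D19 mice had it for 19 days. The middle library was called D5 by its title and treatment label and D6 by its description and by the methods, and it is called D5 here. The methods gave male mice for single-cell sequencing and 6 to 12 weeks of age for the C57BL/6J mice. Pooled hepatoduodenal and celiac LNs were sorted into 5 populations mixed at equal ratios: alive singlets, Cd45+ Cd11c-, Cd45+ Cd11c+, Pdpn+ and Cd45- Pdpn- cells. RNA was read together with 11 surface antibodies per cell (CITE-seq). Each time point was 1 library, and the number of mice behind it was not stated, so time points were compared with no test. Shares of cells carry exact Clopper-Pearson 95% intervals and UMI sums carry exact Poisson 95% intervals. They cover counting error only, and those of UMI sums also leave out variation between cells.

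Type 1 conventional dendritic cells (cDC1) take up dying cells and present their antigens on MHC class I to CD8 T cells, which is called cross-presentation. Xcr1 is the receptor for the chemokine Xcl1 made by CD8 T cells and NK cells, and Clec9a binds actin exposed by dead cells. LN-resident cDC1 carry CD8a, whereas cDC1 that have migrated from a tissue often carry CD103 (Itgae) and express Fscn1 and Ccr7 once mature.

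The selected cells were checked against surface protein, which the rule did not use. The antibodies carry DNA barcodes that are read with the RNA, and the 3 barcodes that bear on the identity of the cells are shown 5′ to 3′, all in capitals because every base is part of the barcode.
XCR1: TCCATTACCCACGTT
CD8a: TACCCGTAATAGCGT
CD11b: TGAAGGCTCATTTGT
The XCR1 barcode marks the cDC1 receptor itself, the CD8a barcode marks the resident form, and the CD11b barcode marks cDC2 and myeloid cells.

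XCR1 protein was above background on most selected cells of every library, but not on all of them. The median XCR1 count was 177 at D0, 85 at D5 and 100 at D19, against 1, 1 and 0 in Cd79a+ cells of the same libraries, which served as B cell background. The Cd79a+ cells had 2 or more Cd79a UMIs and 0 of Cd3e, Xcr1 and Clec9a. A cell was called XCR1 protein positive above the 99th percentile of the Cd79a+ cells, which was 29, 29 and 18.1 counts. By this cut 77 of 95 cells were positive at D0 (81.1%, 71.7 to 88.4%), 17 of 23 at D5 (73.9%, 51.6 to 89.8%) and 28 of 37 at D19 (75.7%, 58.8 to 88.2%). None of the 45, 21 and 14 cells selected for the cDC2 genes Cd209a, Clec10a and Mgl2 passed it, with exact upper limits of 7.87%, 16.1% and 23.2%, but these cells were also chosen to have no UMI of Xcr1 or Clec9a. Mature Fscn1+ cells passed it in 26.5%, 17.6% and 23.6% of cells. The remaining 18, 6 and 9 selected cells did not pass the cut for the protein that the name cDC1 calls for. Their highest counts were 27, 11 and 14, so failing the cut does not show that the protein was absent. The group is therefore called Xcr1/Clec9a-selected cells below.

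CD8a protein split the same way. Its median was 742 at D0, 348 at D5 and 268 at D19 over all selected cells, beside median totals of 1141, 802 and 582 counts over the 11 antibodies, CD8a included. Within each library the XCR1 protein positive cells had CD8a medians of 936, 489 and 354.5, and the negative cells had 77, 64 and 15. CD11b went the other way, with medians of 45, 68 and 32 in the positive cells and 132, 238.5 and 98 in the negative cells. The cDC2-marker cells had CD11b medians of 610, 1023 and 248.5, above the medians of both. The ranges overlapped, since the highest selected cells reached 609, 1146 and 507. No selected cell passed the 99th percentile of the Cd79a+ cells for CD11b, which 21 of 45, 9 of 21 and 2 of 14 cDC2-marker cells passed.

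**Figure D1:**
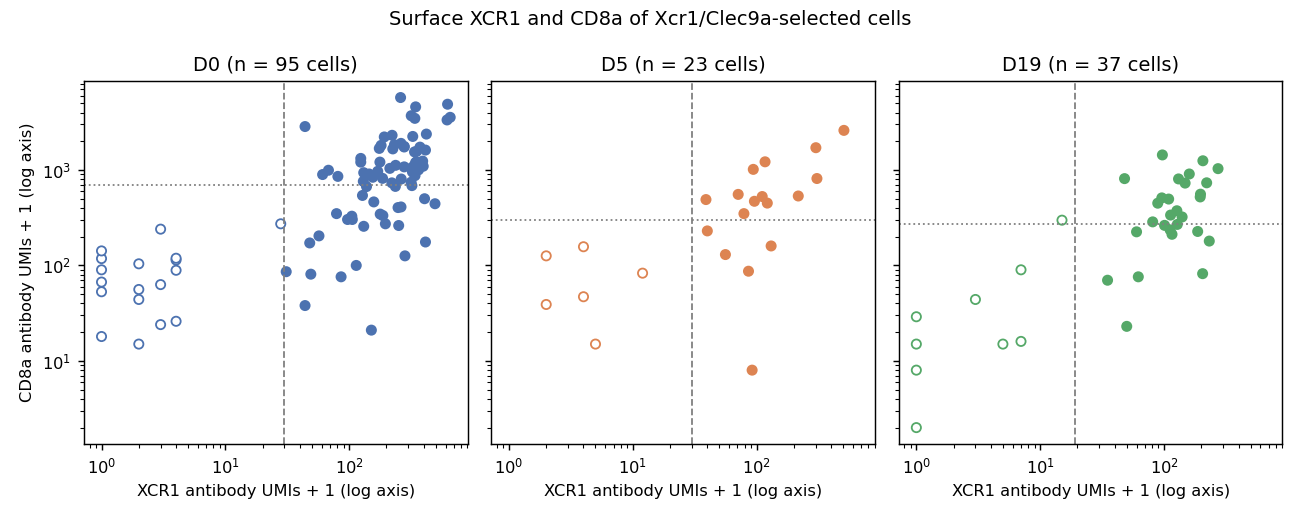
Antibody counts of XCR1 (horizontal, counts + 1, log axis) and CD8a (vertical, counts + 1, log axis) for each Xcr1/Clec9a-selected cell, by library. Filled points are XCR1 protein positive and open points negative, and the lines give the 99th percentile of Cd79a+ cells for each antibody. The 18, 6 and 9 open points lie to the left of the dashed line, and all but 1 of them lie below the dotted CD8a line.

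The rule's threshold fell among cells of mixed identity. Of cells with exactly 2 Xcr1 and Clec9a UMIs, just inside it, 4 of 13, 3 of 7 and 2 of 9 were XCR1 protein positive. Of cells with exactly 3, 10 of 11, 2 of 2 and 4 of 6 were. Of cells with exactly 1 UMI, just outside, 3 of 24, 2 of 5 and 8 of 16 were. Both genes were detected in 74, 13 and 28 selected cells, Xcr1 alone in 10, 5 and 3 and Clec9a alone in 11, 5 and 6. The Siglech exclusion removed the most candidates, 81, 44 and 26 cells with median Siglech counts of 22, 27 and 13, of which 12, 1 and 3 were XCR1 protein positive. The Fscn1 exclusion removed 13, 17 and 10 cells. Over all cells, 274, 184 and 369 were XCR1 protein positive, and 125, 111 and 262 of these had at least 1 Fscn1 UMI. Of the Fscn1+ comparison cells, which need 2 or more Fscn1 UMIs, 75, 76 and 183 were positive, against 77, 17 and 28 of the selected cells. A further 14, 11 and 27 positive cells had no UMI of Xcr1, Clec9a or the genes of the exclusions, and the rule did not reach them.

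Genes of most other cell types were low in the sum over the selected cells, and erythroid genes were not. The 5 erythroid genes summed to 53.3, 20328 and 12661 CPM, of which 1 cell held 99.8% at D5. Free RNA from barcodes of 1 to 100 UMIs could account for at most 2.81%, 3.24% and 3.802% of their UMIs, taken from immunoglobulin and T cell receptor genes. The 6 neutrophil genes were at 0 in every library. The 8 B cell genes summed to 237, 194 and 127 CPM in the selected cells, against 6591, 4244 and 3657 CPM in free RNA. The 8 cDC2 genes summed to 82.1, 224 and 18.9 CPM. The cDC2 genes had 2 or more UMIs in 5, 4 and 2 cells. The 8 pDC genes summed to 112, 174 and 140.1 CPM, and the 10 monocyte and macrophage genes to 227, 310.1 and 277 CPM. The T cell, mature dendritic cell, NK cell and plasma cell genes summed to 51.2, 33.2 and 102 CPM, to 45.6, 144 and 86.2 CPM, to 58.2, 2.77 and 0 CPM and to 62.4, 85.8 and 72.7 CPM. At D0, 1 cell held 90.4% of the NK cell gene UMIs. For the T cell genes 1 cell held 41.1%, 58.3% and 57.9% of the UMIs at D0, D5 and D19. Stromal, endothelial and hepatocyte genes summed to at most 18.9 CPM in any library. T cell receptor UMIs at 2 or more were found in 3, 1 and 2 cells. Irf8 RNA was at most 1 UMI in 2, 4 and 4 cells, of which 1, 4 and 1 were XCR1 protein negative. Haemoglobin UMIs sat almost wholly in 1 cell at D5, with 7318 of 7332, and in 2 cells at D19, with 4664 of 4696. Their part in the differences between time points is given where a gene rests on them. Cell barcodes were shared by 12, 12 and 9 cells of pairs of libraries, and none was a selected cell.

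XCR1 protein positive and negative cells also differed in RNA. This comparison was added after the data had been seen. UMIs of the 122 positive and 33 negative cells were summed per library, and the 3 pairs were tested with edgeR's quasi-likelihood test with the library as a block and Benjamini-Hochberg adjustment. Of 3495 genes tested, 81 were higher (2.32% of the genes tested) and 40 lower (1.14%) in the positive cells at an adjusted p under 0.05. Of these 121 genes, 117 differed in the same direction in 3 of 3 libraries, and Apol7c, Egr2, Egr3 and Il12b did not. Xcr1 RNA itself was at 0 in 3, 0 and 0 positive cells and in 8, 5 and 6 negative cells, and it is not counted as a result because the rule selected on it. Median depth was close in both, at 15780, 15345 and 9624.5 UMIs in positive cells and 14404.5, 15194.5 and 9155 in negative cells.

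The genes higher in XCR1 protein positive cells included cDC1 genes. Cadm1, an adhesion molecule of cDC1, was at 104, 105 and 244 CPM in positive cells and at 3.81, 10.6 and 30.9 CPM in negative cells at D0, D5 and D19. The groups did not overlap, and the log2 difference was 3.74 ± 0.49 (SE, n = 3 pairs, edgeR adjusted p = 9.0e-05). Cd8a was at 274, 135 and 102 CPM against 41.9, 0 and 30.9 CPM (log2 difference 2.93 ± 0.43, edgeR adjusted p = 0.000405). The lysosomal enzymes Ppt1 and Naaa rose by 1.69 ± 0.20 and 1.60 ± 0.27 on the log2 scale. Cd81, a tetraspanin, had 275 UMIs in the positive cells and 0 in the 33 negative cells, and was at least 24.4-fold higher against a floor of 3 UMIs over the negative cells. The MHC class II gene H2-Eb1 rose from 4328, 5349 and 4105 CPM to 8024, 8229 and 8324 CPM. Bcl2a1a and Bcl2a1d, anti-apoptotic paralogs, rose by 5.16 ± 0.56 and 2.07 ± 0.35, but their reads are near-identical to those of a further copy, so their split is uncertain. Ncoa7, Serpinb6b, Txn1 and Gm6377 completed the named genes, with log2 differences of 2.41, 3.64, 1.64 and 1.79. Of the 22 cDC1 identity genes tested, 7 were higher and none lower, and they were Cadm1, Cd36, Cd8a, Itgae, Naaa, Plpp1 and Ppt1. Of 13 MHC class II genes 4 were higher, namely Cd74, H2-Aa, H2-Ab1 and H2-Eb1. Ribosomal protein genes gave the most calls of any list, with 18 of 87 higher and none lower. Of 18 MHC class I genes none passed, nor did any of 16 heat shock genes. The median log2 difference of the cDC1 identity list was 0.84, against -0.01 over all genes tested. Irf8 and Batf3 did not pass, with log2 differences of 0.38 ± 0.18 and -0.03 ± 0.28.

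The genes lower in the positive cells included S100, Ms4a and Ifitm genes. S100a4, a calcium-binding protein of motile cells, was at 16.3, 3.75 and 3.65 CPM in positive cells and at 351, 1667 and 609 CPM in negative cells (log2 difference -5.58 ± 0.60, edgeR adjusted p = 0.00246). Fcer1g, the signalling adaptor of Fc and other activating receptors, was at 74.8, 71.3 and 29.2 CPM against 644, 1044 and 206 CPM (-3.13 ± 0.29, edgeR adjusted p = 1.8e-06). The membrane protein gene Ms4a6c fell by 2.68 ± 0.30, S100a6 by 2.28 ± 0.28 and the interferon-induced Ifitm6 by 3.30 ± 0.42. Klrd1, the CD94 chain of NK receptors, fell by 2.69 ± 0.38. Anxa2, Ifitm2, Ifitm3, Ms4a4c and Tagln2 were lower as well, and their log2 differences lay between -3.64 and -1.39. Among 13 chemotaxis and adhesion genes 3 were lower, Ccr2 and Gpr183 among them, and none was higher. Cd209a, one of the genes that chose the cDC2-marker cells, and Cd7 fell outside the naming rule and were chosen after their values were seen. Cd7, a surface protein of lymphoid cells, is also 1 of the 8 cDC2 genes summed above and gave 49 of their 81 UMIs at D5. The study also reports Cd7 in liver dendritic cell precursors without Mgl2. Neither Cd209a nor Cd7 had a UMI in the 122 positive cells. In the negative cells Cd209a had 90, 18 and 2 UMIs at D0, D5 and D19 (edgeR adjusted p = 1.1e-06, DESeq2 adjusted p = 0.215), and Cd7 had 21, 49 and 2 (edgeR adjusted p = 2.4e-06, DESeq2 adjusted p = 0.0949). Leaving out the D0 library, which holds most cells, gave 12 genes higher and 3 lower of 1332 that could be tested, and 11 of the 121 genes were among them. Without normalization factors the balance turned, with 47 genes higher and 60 lower. DESeq2 called 28 and 18.

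**Figure D2:**
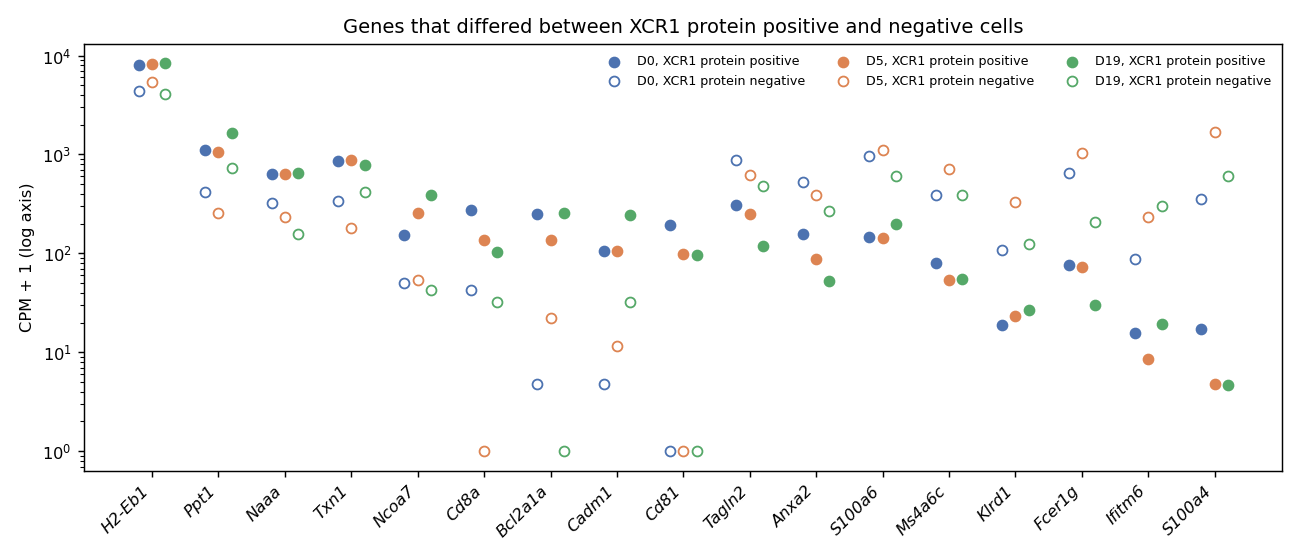
CPM + 1 (log axis) of genes that differed between XCR1 protein positive (filled) and negative (open) selected cells, with 1 point per library (D0, D5, D19) from UMIs summed over its cells. Filled and open points are separate for each gene shown in every library: Cadm1 lies at 104 to 244 CPM in positive cells and 3.81 to 30.9 CPM in negative cells, and S100a4 at 3.65 to 16.3 against 351 to 1667 CPM.

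Cells that met the rule were fewer in the D5 and D19 libraries than at D0. They were 95 of 6542 cells at D0 (1.45%, 1.18 to 1.77%), 23 of 6248 at D5 (0.368%, 0.233 to 0.552%) and 37 of 6753 at D19 (0.548%, 0.386 to 0.754%). The interval at D0 did not overlap the other 2, which overlapped each other. The cells had been sorted into fixed mixtures, so these are shares of a sorted mix and not of the LN, and the mix, the mice and the day cannot be told apart. The share also depends on detection of Xcr1 and Clec9a RNA. Over all cells 274, 184 and 369 were XCR1 protein positive, of which 125, 111 and 262 had an Fscn1 UMI. The rule selected 77, 17 and 28 of the positive cells, and the part of RNA detection was not tested. The median depth of the selected cells was 15332, 15345 and 9393 UMIs, against 4945.5, 4931.5 and 3333 over all cells of the libraries. The sums behind each level were 1425661, 361170 and 371217 UMIs, so the sums of D5 and D19 were close and that of D0 was larger, while the depth per cell was lowest at D19.

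For the comparison over time, 3509 genes with 60 or more UMIs in the selected cells were used. D0 gave the largest sum of UMIs, so this filter admitted genes high at D0 more readily than genes high on the diet. Levels are CPM, the UMIs of a gene scaled to the summed UMIs of the library's selected cells, and differences are on the log2(CPM + 10) scale, which understates the change of low genes. With D5 set against D0, 420 genes were higher by 0.5 or more (12.0%) and 377 lower (10.7%). This balance turned to 211 higher and 312 lower without the cell that held most UMIs of each gene. With D19 set against D0, 425 were higher (12.1%) and 732 lower (20.9%). With D19 set against D5, 398 were higher (11.3%) and 776 lower (22.1%). The excess of lower genes at D19 depended on the scaling, since median-ratio size factors gave 555 higher and 599 lower against D0 and 528 higher and 622 lower against D5. These shares are the background against which the counts of each gene list are to be read. D0 is shared by the first 2 contrasts, so agreement between them is not independent. The medians over all tested genes were 0.00, -0.09 and -0.11 for the 3 contrasts.

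The cDC1 program was present at every time point. Irf8, the transcription factor that cDC1 depend on, was at 1291 CPM at D0, 1049 CPM at D5 and 1109.9 CPM at D19. Batf3, its partner in cDC1 development, was at 236 CPM at D0, 141 CPM at D5 and 167 CPM at D19, with the intervals of D0 and D5 apart. Id2, the repressor of E proteins needed for dendritic cell development, was at 618 CPM at D0, 983 CPM at D5 and 1175 CPM at D19. At 4000 UMIs per cell, Irf8 was detected in 97.8%, 81.0% and 89.2% of the selected cells, but also in 64.6%, 65.5% and 47.7% of Cd79a+ cells, which express it too. Naaa, Wdfy4 and Cd24a kept similar levels, and Wdfy4, which cross-presentation requires, was at 304 CPM at D0, 341 CPM at D5 and 299 CPM at D19. Of the 22 cDC1 identity genes, 1 was higher and 4 lower at D5 than at D0. At D19, 8 were higher and 2 lower, with a list median of -0.02.

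The genes that were higher at D19 included receptors and adhesion molecules of cDC1. Tlr3, the endosomal receptor for double-stranded RNA, was at 109 CPM (92.3 to 127) at D0, 52.6 CPM (31.7 to 82.2) at D5 and 264 CPM (214 to 322) at D19. The highest level was that of D19, its interval lay above both others, and the difference was 1.21 against D0 and 2.13 against D5. The lower level at D5 than at D0 did not hold with each cell thinned to 1000 UMIs, where the difference was 0.21. Tlr3 was detected in 36.3%, 28.6% and 59.5% of cells at 4000 UMIs, and in at most 0.753% of Cd79a+ cells. Itgae, the CD103 integrin chain, was at 18.2 CPM (11.9 to 26.7), 22.2 CPM (9.56 to 43.6) and 99.7 CPM (70.2 to 137). It was detected in 6 of 91, 0 of 21 and 10 of 37 cells at 4000 UMIs. Havcr2, the TIM-3 receptor of cDC1, was at 95.4 CPM at D0, 111 CPM at D5 and 321 CPM at D19, and Cadm1 at 85.6 CPM at D0, 80.3 CPM at D5 and 189 CPM at D19. The interferon-inducible Ifi205 was at 295 CPM at D0, 263 CPM at D5 and 528 CPM at D19 and Ppt1 at 979.9 CPM at D0, 847 CPM at D5 and 1412 CPM at D19. In Cd79a+ cells the D19 differences of Tlr3, Itgae, Havcr2, Cadm1 and Ifi205 were 0.03, 0.21, -0.30, 0.02 and 0.20, and in Fscn1+ cells 0.38, 0.06, 0.19, -0.04 and -0.08. Of 6 Toll-like and pattern receptor genes, Tlr3 included, none was higher and 2 lower at D5, and 1 was higher and 1 lower at D19. Among XCR1 protein positive cells alone the Tlr3 and Itgae differences were 1.45 and 2.13. Cd79a+ cells hardly hold Tlr3 and could not show such a difference.

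Cd8a RNA went the other way. It was at 231 CPM (207 to 258), 99.7 CPM (69.8 to 138) and 83.5 CPM (56.7 to 119), and it was detected in 46.2%, 23.8% and 29.7% of cells at 4000 UMIs. The D19 difference was -1.37 in the selected cells, -1.54 in Fscn1+ cells and -0.33 in Cd79a+ cells. CD8a protein above the B cell background was found in 51.6%, 52.2% and 48.6% of the selected cells, with overlapping intervals. That cut differed between libraries, at 692, 299 and 270 counts, and the CD8a medians were 742, 348 and 268. Similar shares above it do not show similar amounts of protein. Free RNA held Cd8a at 127, 65.3 and 48.8 CPM, and with free RNA subtracted the D19 difference was -1.37 as before. Snx22, a sorting nexin, was at 72.9 CPM at D0, 69.2 CPM at D5 and 29.6 CPM at D19.

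**Figure D3:**
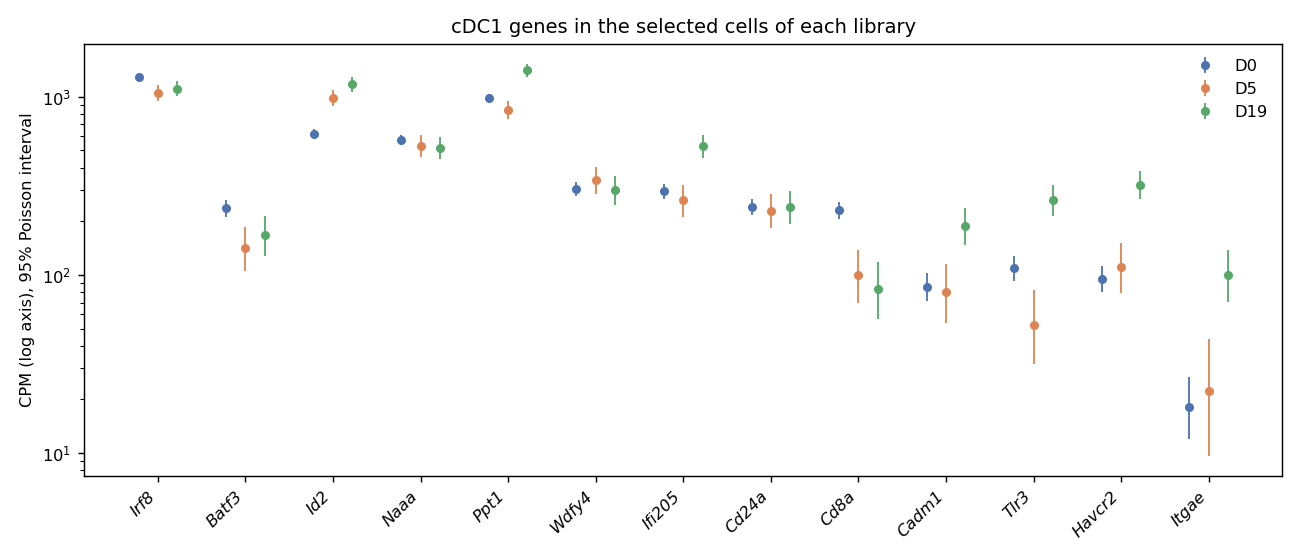
Levels (CPM, log axis) of cDC1 genes summed over the selected cells of each library, with exact Poisson 95% intervals. Irf8 lies between 1049 and 1291 CPM, whereas Tlr3, Havcr2, Itgae and Cadm1 are highest at D19 and Cd8a is highest at D0.

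The machinery of antigen presentation differed by class. Of 18 genes of MHC class I loading and cross-presentation, none was higher and 1 lower at D5 than at D0, and 1 was higher and 12 lower at D19, with a median of -0.61. Psmb9, an immunoproteasome subunit, was at 769 CPM at D0, 667 CPM at D5 and 431 CPM at D19. H2-K1, an MHC class I heavy chain whose reads resemble those of H2-D1, was at 831 CPM at D0, 706 CPM at D5 and 496 CPM at D19. The proteasome activator gene Psme2 was at 537 CPM at D0, 468 CPM at D5 and 288 CPM at D19, and the chaperone Calr, which folds class I, at 608 CPM at D0, 537 CPM at D5 and 261 CPM at D19. Rab43, a GTPase of cross-presentation, was the 1 gene higher at D19, at 151 CPM at D0, 169 CPM at D5 and 307 CPM at D19. B2m, the light chain, was at 1477 CPM at D0, 1340.1 CPM at D5 and 1239 CPM at D19. The D19 median of this list was -0.44 in Cd79a+ cells and -0.05 in Fscn1+ cells. Of 13 MHC class II genes, 1 was higher at D5 and 2 at D19, and none was lower. The class II chains H2-Aa and H2-Eb1 were at 9207 CPM at D0, 8118 CPM at D5 and 8434 CPM at D19, and at 7344 CPM at D0, 7473 CPM at D5 and 7222 CPM at D19. Ciita, the class II transactivator, was at 138 CPM at D0, 149.5 CPM at D5 and 221 CPM at D19. The median class II difference at D19 was -0.02 in the selected cells, -0.37 in Cd79a+ cells and -1.12 in Fscn1+ cells.

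Most inflammatory cytokine and chemokine genes tested were lower on the diet than at D0. The filter of 60 UMIs favoured genes high at D0, so part of this was set by the filter. Of 11 tested, none was higher and 7 lower at D5, with a median of -1.12, and 1 was higher and 7 lower at D19, with a median of -0.70. The D5 median was -0.42 with genes of 20 or more UMIs, and that of D19 was -0.35 with each cell thinned to 1000 UMIs. Cxcl9, a chemokine for activated T cells induced by interferon gamma, was at 758 CPM (714 to 805), 343 CPM (286 to 409) and 329 CPM (273 to 392). It was detected in 60.4% (49.6 to 70.5%) of cells at 4000 UMIs at D0, 19.05% (5.45 to 41.9%) at D5 and 24.3% (11.8 to 41.2%) at D19, and in at most 0.707% of Cd79a+ cells. The D5 level came to 79.0% from 1 cell. Il12b, the p40 chain of interleukin 12, had 76 UMIs at D0 and 0 at D5 and D19, so it passed the filter of 60 UMIs through D0 alone. Against a floor of 3 UMIs per library, Il12b was at least 6.42-fold lower at D5 and at least 6.60-fold lower at D19. Bounds of this kind, for every gene, count UMIs and leave out variation between cells. The 76 Il12b UMIs lay in 10 cells, with 30.3% of them in 1 cell, so its absence among the fewer cells of D5 and D19 is weak evidence of a fall. Cxcl10 was at 80.0 CPM at D0, 11.1 CPM at D5 and 0 CPM at D19, and 48.2% of its D0 UMIs lay in 1 cell. Il1b, the gene of interleukin 1 beta, was at 393 CPM at D0, 94.1 CPM at D5 and 259 CPM at D19, detected in 39.6%, 14.3% and 18.9% of cells at 4000 UMIs. Ccl4, a chemokine that attracts T cells and monocytes, was at 403 CPM at D0, 141 CPM at D5 and 154 CPM at D19. In Fscn1+ cells the median of the list was -0.36 at D5 and 0.00 at D19, and in Cd79a+ cells -0.11 and -0.08. Single genes moved there as well. The D5 difference of Il1b was -1.95 in the selected cells, -1.49 in Fscn1+ cells and -1.15 in Cd79a+ cells. In Fscn1+ cells Ccl4 differed by -2.69 at D5 and -2.40 at D19, while Cxcl9 differed by 0.04 and 0.24.

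No tested gene of the 2 interferon lists was higher on the diet by 0.5 or more, while Ifi205 and Ifitm6, interferon-inducible genes outside the lists, were higher at D19. Only 4 of the 22 listed interferon gamma response genes could be tested. All 4 were lower at D5, and 3 of 4 at D19, with medians of -1.00 and -1.05, the latter -0.35 with each cell thinned to 1000 UMIs. The 4 genes were Cxcl9, Cxcl10, Irf1 and Serpina3g, and Cxcl9 and Cxcl10 are also on the cytokine list. Of 10 type I interferon genes, 2 were lower at D5 and 4 at D19, and none was higher. Isg15, a ubiquitin-like protein, had 68 UMIs at D0 and 0 at D5, at least 5.74-fold lower, and was at 13.5 CPM at D19. Isg15 passed the UMI filter through its D0 UMIs. Over all libraries 12 of 122 XCR1 protein positive cells held Isg15, with 38.8% of their Isg15 UMIs in a single cell. Among negative cells 4 of 33 held it, with 62.5% of their Isg15 UMIs in a single cell. The absence of Isg15 among the fewer cells of D5 is therefore weak evidence of a fall. Bst2, a membrane tether for viruses, was at 234 CPM at D0, 241 CPM at D5 and 99.7 CPM at D19. The type I list medians at D5 and D19 were -0.26 and -0.44 in the selected cells. They were -0.64 and -0.82 in Cd79a+ cells and -0.19 and -0.48 in Fscn1+ cells.

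Heat shock genes and chaperones were lower on the diet, and were so in other cells of the same libraries. Of 16 genes, 12 were lower at D5 and 16 at D19, with medians of -0.78 and -1.64 and no gene higher. Hspa1a, an inducible HSP70, was at 690.2 CPM at D0, 274 CPM at D5 and 13.5 CPM at D19, and Hspa1b had sums of 563, 15 and 0 UMIs, at least 48.9-fold lower at D19. The reads of these neighbours are near-identical, so their split is uncertain. Hsp90aa1 was at 578 CPM at D0, 277 CPM at D5 and 135 CPM at D19, the co-chaperone Dnajb1 at 211 CPM at D0, 33.2 CPM at D5 and 37.7 CPM at D19 and the mitochondrial co-chaperonin Hspe1 at 839 CPM at D0, 454 CPM at D5 and 391 CPM at D19. The list medians at D5 and D19 were -0.97 and -1.41 in Cd79a+ cells and -0.93 and -1.51 in Fscn1+ cells. Free RNA held Hspa1b at 432, 46.3 and 2.90 CPM. With free RNA subtracted the list medians were -0.76 and -1.63. The gene group was lower in other cells as well, and the part of this in the result was not tested. Chaperones of the endoplasmic reticulum on this list were lower at D19 as well. Sdf2l1 was at 366 CPM at D0, 274 CPM at D5 and 80.8 CPM at D19 and detected in 60.4%, 66.7% and 10.8% of cells at 4000 UMIs. Its D19 difference was -2.05 in the selected cells, -0.81 in Cd79a+ cells and -0.49 in Fscn1+ cells. Hspa5, the BiP chaperone, was at 1011 CPM at D0, 709 CPM at D5 and 409 CPM at D19, and Pdia6 at 394 CPM at D0, 293 CPM at D5 and 124 CPM at D19.

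The promoters of the heat shock genes are shown because these genes moved together. RefSeq promoters (GRCm38.p6, 250 bases before to 50 after the start site) were held for 12 of the 16 genes. They were searched for GAANNTTC, the core of the element bound by heat shock factors, which reads the same on both strands. It was present in 6 of the 12 (50%), namely Dnaja1, Hspa1a, Hspa1b, Hspd1, Hspe1 and Hsph1, and in 2442 of 27025 promoters in all (9.04%). The motif is in capitals in 48 bases around it, on the gene's strand: chr17:34972233-34972280 (minus strand) for Hspa1a, chr17:34959315-34959362 (minus strand) for Hspa1b and chr1:55088044-55088091 (plus strand) for Hspe1.
Hspa1a: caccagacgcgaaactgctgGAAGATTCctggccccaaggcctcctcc
Hspa1b: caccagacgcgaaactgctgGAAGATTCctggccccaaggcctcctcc
Hspe1: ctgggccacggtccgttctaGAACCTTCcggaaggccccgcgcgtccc
The motif starts 104 bases before the start site of Hspa1a and Hspa1b and 84 bases before that of Hspe1. Sdf2l1, Hspa5 and Dnajb1 had no such match in this window. A match is a description of the sequence and was not tested for binding. The list was chosen by gene function, so its share of promoters with the motif is not a result of these data.

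Most immediate early genes, which cells switch on within minutes of stimulation, were lower at D5 than at D0. Of 22 genes, 19 were lower at D5 than at D0 and none higher, with a median of -0.98. At D19, 2 were higher and 7 lower than at D0, and 10 were higher and 1 lower than at D5. Egr1 was at 259 CPM (233 to 287), 85.8 CPM (58.3 to 122) and 593 CPM (517 to 676), and Egr3 at 54.0 CPM (42.6 to 67.5), 5.54 CPM (0.671 to 20.004) and 191 CPM (149 to 241). Nr4a1 was at 325 CPM at D0, 83.1 CPM at D5 and 239.8 CPM at D19 and the stress-induced factor Atf3 at 628 CPM at D0, 199 CPM at D5 and 127 CPM at D19. Egr2 had no UMI at D5, at least 5.07-fold lower than at D0 and at least 4.54-fold lower than at D19. In Cd79a+ cells the list medians were -0.78 and -0.71, and in Fscn1+ cells -0.66 and -0.77. The D19 difference of Egr3 was 1.65 in the selected cells, 0.28 in Cd79a+ cells and -0.05 in Fscn1+ cells. Of 22 immediate early genes, 7 were higher in XCR1 protein positive than negative cells, Egr1 and Egr3 among them, and 1, Dusp2, was lower, beside 2.32% and 1.14% of all genes tested. At D5 Egr3 went the other way, at 3.75 CPM in positive and 10.6 CPM in negative cells.

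**Figure D4:**
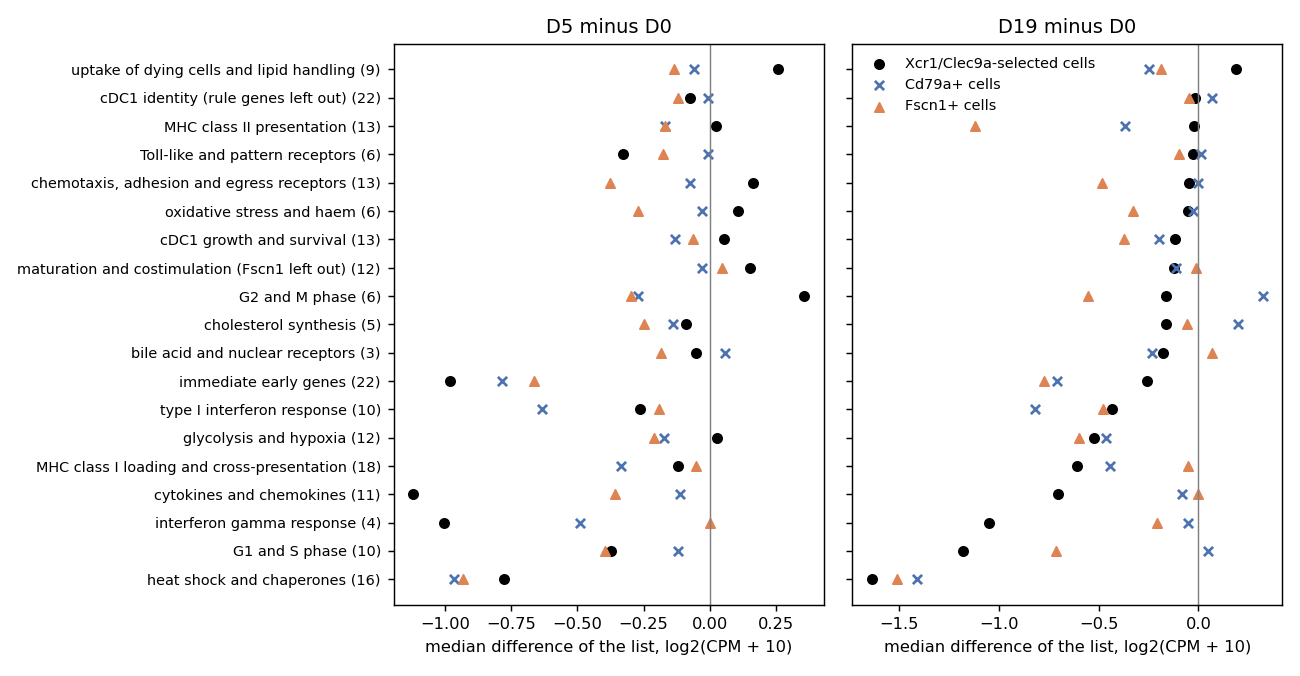
Median log2(CPM + 10) difference of each gene list, D5 minus D0 (left) and D19 minus D0 (right), in Xcr1/Clec9a-selected cells (black), Cd79a+ cells (blue) and Fscn1+ cells (orange), with the number of tested genes in brackets. Heat shock genes lie near -0.78 and -1.64 in the selected cells and at similar values in the other cells, whereas the cytokine list lies at -1.12 and -0.70 with the other cells between -0.36 and 0.00.

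RNA of dividing cells was found in few selected cells once depth was matched. With each cell thinned to 1000 UMIs, 2 or more UMIs of G2 and M phase genes were found in 9 of 95 cells at D0 (9.47%, 4.42 to 17.2%), 1 of 23 at D5 (4.35%, 0.110 to 21.9%) and 1 of 37 at D19 (2.70%, 0.0684 to 14.2%). The intervals overlapped. Without thinning the shares were 47.4%, 52.2% and 24.3%, and D5 was then above D0. In Cd79a+ cells the thinned share was 1.76%, 2.15% and 1.60%. Genes of G1 and S phase were lower in 3 of 10 at D5 and in 10 of 10 at D19, with medians of -0.37 and -1.18. Pcna, the clamp of DNA polymerase, was at 91.9 CPM at D0, 111 CPM at D5 and 48.5 CPM at D19, and Dut, which removes dUTP, at 128 CPM at D0, 85.8 CPM at D5 and 48.5 CPM at D19. The G1 and S phase medians at D19 were 0.05 in Cd79a+ cells and -0.71 in Fscn1+ cells. The 6 tested G2 and M phase genes rested on 1 cell for at least 50% of the D5 UMIs in 5 of them and are not read further. Of 12 glycolysis genes, 6 were lower at D19 and none higher, among them Pgam1 at 171 CPM at D0, 161 CPM at D5 and 72.7 CPM at D19. Their median was -0.52 (-0.26 with each cell thinned to 1000 UMIs), close to that of Cd79a+ cells (-0.46) and Fscn1+ cells (-0.60).

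Some receptors for movement were higher on the diet, while growth and survival genes were near the background. Of 13 chemotaxis, adhesion and egress genes, 5 were higher and none lower at D5, and 4 were higher and 1 lower at D19. Cxcr4, the receptor for Cxcl12, was at 35.1 CPM (26.03 to 46.2), 122 CPM (88.5 to 164) and 53.9 CPM (32.9 to 83.2). It was detected in 9 of 91, 7 of 21 and 5 of 37 cells at 4000 UMIs, but in 47.6%, 62.5% and 55.5% of Cd79a+ cells. Its D5 difference was 1.55 in the selected cells, 0.55 in Cd79a+ cells and 0.83 in Fscn1+ cells. Itga4, an integrin chain for binding Vcam1, was at 183 CPM at D0, 307 CPM at D5 and 366 CPM at D19. Its D19 difference was 0.96 in the selected cells and 1.04 in Fscn1+ cells. Kit, the stem cell factor receptor, was at 109 CPM at D0, 169 CPM at D5 and 197 CPM at D19, but its D19 difference of 0.79 became -0.21 with each cell thinned to 1000 UMIs. Flt3, the receptor for the main dendritic cell growth factor, was at 92.6 CPM at D0, 130.1 CPM at D5 and 86.2 CPM at D19. Of 13 growth and survival genes, 3 were higher and 2 lower at D5, and 2 were higher and 1 lower at D19, with medians of 0.05 and -0.12. Of 12 maturation genes, 5 were higher and 2 lower at D5, and 1 was higher and 4 lower at D19. Cd83, an activation marker, was at 495 CPM at D0, 269 CPM at D5 and 337 CPM at D19, and Nfkb1 at 63.8 CPM at D0, 116 CPM at D5 and 121 CPM at D19. Ccr7 was too low to be tested.

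Among 9 genes of dying cell uptake and lipid handling, 3 were higher at D5 and none lower, and 2 were higher and 3 lower at D19. Apol7c, an apolipoprotein L gene of dendritic cells, had 114 UMIs in the D0 library, 112 in that of D5 and 0 in that of D19, but 101 of the 112 UMIs lay in 1 cell. Its D5 difference was 1.83, and -1.11 without that cell. At D19 Apol7c was below its level at D5 by at least 38.4-fold, and the difference without the top cell was -2.05. Hbb-bs, Hba-a1, Hba-a2 and Hbb-bt led the D5 differences at 5.91 to 8.29, all from the 1 haemoglobin-rich cell, and Cd7 followed with 2.56, and 1.53 without its top cell. All Cd7 UMIs lay in XCR1 protein negative cells, and the D5 difference was -0.12 with both Xcr1 and Clec9a required. Abcg1, a cholesterol exporter, was at 18.2 CPM at D0, 63.7 CPM at D5 and 29.6 CPM at D19. In XCR1 protein positive cells it was at 18.9 CPM at D0 and 37.5 CPM at D5, and in negative cells at 15.2 and 137 CPM. Of 5 cholesterol synthesis genes, 1 was higher at D5, and 2 were higher and 1 lower at D19. None of 3 tested bile acid and nuclear receptor genes passed 0.5 at D5, and 1 was lower at D19. None of 6 oxidative stress and haem genes passed at D5, and 2 were lower at D19. Fth1, the ferritin heavy chain, was at 1909 CPM at D0, 2289.8 CPM at D5 and 2026 CPM at D19.

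The other genes named by size of difference had mixed specificity. Ppp1r14a, an inhibitor of myosin phosphatase, was at 9.82 CPM (5.37 to 16.5), 52.6 CPM (31.7 to 82.2) and 105 CPM (74.7 to 144). It was lowest at D0 and highest at D19, and its D19 difference was 2.54, against -0.68 in Cd79a+ and -0.54 in Fscn1+ cells. The orphan receptor Gpr141 was at 19.6 CPM (13.1 to 28.4), 83.1 CPM (56.0 to 119) and 72.7 CPM (47.9 to 106), detected in 4 of 91, 8 of 21 and 10 of 37 cells at 4000 UMIs and in at most 2.12% of Cd79a+ cells. Cirbp, a cold-inducible RNA-binding protein, and Pdcd4, an inhibitor of translation, were higher at D19 by 1.97 and 1.89. They were also higher in Cd79a+ cells by 1.48 and 1.37 and in Fscn1+ cells by 1.74 and 1.89, as were the ribonuclease copies Rnaset2a and Rnaset2b, whose reads are near-identical. Kcnq1ot1, a long non-coding RNA, was higher at D5 by 1.61, and by 1.01 in Cd79a+ cells. Ifitm6 was higher at D19 by 1.42, and by 0.78 without its top cell. In XCR1 protein positive cells it was at 14.6, 7.51 and 18.2 CPM at D0, D5 and D19, and in negative cells at 87.6, 232 and 299 CPM. Il2rg, the common cytokine receptor chain, was at 34.4 CPM at D0, 102 CPM at D5 and 8.08 CPM at D19, and Mtch1, a mitochondrial outer membrane protein, at 95.4 CPM at D0, 130.1 CPM at D5 and 24.2 CPM at D19, both lowest at D19. Hist1h1b, a histone made in S phase, was lower at D5 by -2.39, and its D19 difference from D5 of 2.74 became 0.01 without 1 cell. Tnfaip2 was at least 4.14-fold lower at D5 than at D0. Cd209a, a lectin of cDC2 and monocyte-derived cells, was lower at D19 by -2.25, and 67.8% of its D0 UMIs lay in 1 cell.

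**Figure D5:**
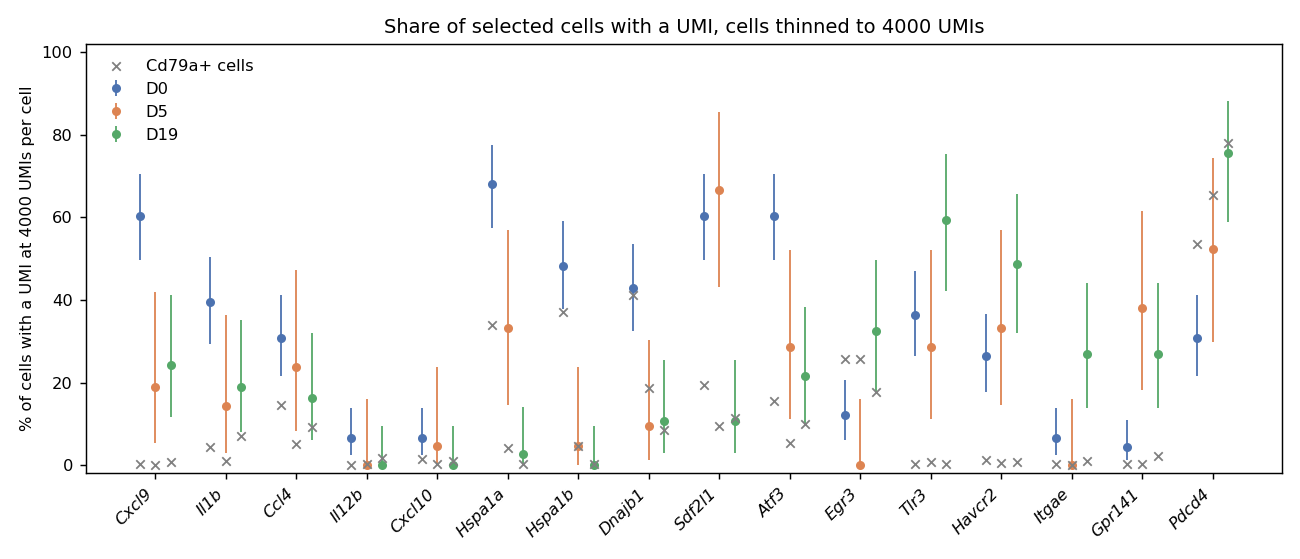
Share of selected cells with at least 1 UMI of a gene after thinning each cell to 4000 UMIs (percent, with exact 95% intervals), for D0 (n = 91 cells), D5 (n = 21) and D19 (n = 37), and crosses for Cd79a+ cells of the same library. Cxcl9 lies at 60.4%, 19.05% and 24.3% with crosses near 0, Tlr3 is highest at D19 with 59.5%, and the heat shock genes Hspa1a and Hspa1b are lower on the diet in both the points and the crosses.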

How the data were processed

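Per the labels, LN cells were captured with a Chromium 3′ kit with Feature Barcoding, and the authors had processed the reads with Cell Ranger on mm10, according to the submitters' processing notes. The deposited matrices held raw UMI counts for 32285 genes and 11 antibodies per barcode, with no cell filter, and the deposited counts were used as they stood. Total RNA counts per library were 45317389 at D0, 47653941 at D5 and 32013882 at D19. The number of mice per library was not given in the sources used here. Promoter sequences came from RefSeq tables of GRCm38.p6.

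Cells were barcodes with no fewer than 1000 RNA UMIs and 500 genes, and with mitochondrial UMIs not above 10%. The members and lists were chosen with earlier results of these data known, and the list medians are descriptions. Levels are summed UMIs scaled to CPM, with 10 CPM added on the log2 scale. The named genes were the 10 largest differences in each direction against D0 and the 6 largest for D19 against D5. A named gene had 60 or more UMIs, Poisson intervals that did not overlap, and a free RNA level under 2 times that of the selected cells where they were higher. Mitochondrial genes and the genes of the selection rule were not ranked. Shares of cells with a UMI were taken after thinning each cell to 4000 UMIs, which left out 4, 2 and 0 selected cells. Comparison cells were Cd79a+ cells (2099, 3258 and 1994), Fscn1+ cells with 2 or more Fscn1 UMIs and no Cd3e, Cd79a or Siglech (283, 431 and 776), and cells with 2 or more UMIs of cDC2 genes and none of the genes of the selection rule (45, 21 and 14). Doublets were scored with Scrublet in scanpy 1.11.5 as an alternative. It left out 342, 312 and 365 cells, and none of the selected cells.

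The XCR1 protein comparison was added after the data were seen. It used edgeR 4.0.16 (TMM normalization, library as a block, genes with 60 or more UMIs) and DESeq2 1.42.0 under R 4.3.3, and the edgeR fit was tested on simulated data. Genes were named there when both tools called them, with the same sign in 3 of 3 libraries and a log2 difference of at least 1, up to 12 in each direction by adjusted p. A gene that met this rule is not reported here. The cells of a library share their mice, so its p-values measure the spread over 3 libraries that also differ in time. Python 3.11.15, numpy 2.4.6 and scipy 1.17.1 were used.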

Additional observations from a re-analysis of the deposited data

How the results depend on the processing

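No paired analysis was possible between time points because each was 1 library. Of 1120 values of named genes over the alternatives, 991 moved little, 116 moved and 13 changed sign. Of 180 list medians 15 moved, none across 0. These were 10 of glycolysis (-0.49 to -0.26), 2 of cytokines and chemokines (-0.42 and -0.35), 2 of G1 and S phase (-0.39 and -0.25) and 1 of the interferon gamma response (-0.35). The alternatives that left out single cells or haemoglobin-rich cells, or kept XCR1 protein positive cells, were chosen after seeing the data. Cd7 at D5 was -0.12 with both Xcr1 and Clec9a required. Hbb-bs, Hba-a2 and Hbb-bt at D5 were -0.070, -0.71 and -0.77 without haemoglobin-rich cells and likewise without the top cell, and Hba-a2 and Hbb-bt were -0.76 and -0.71 with cycling cells left out. Apol7c at D5 was -1.11 without its top cell, and Hist1h1b at D19 against D5 was -0.011 in XCR1 protein positive cells. With each cell thinned to 1000 UMIs, Tlr3 at D5 was 0.21 and Kit at D19 was -0.21.

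The XCR1 protein positive share was 89.0% at D0 and 92.9% at D19 with 3 or more Xcr1 and Clec9a UMIs, and 89.2%, 92.3% and 89.3% with both genes required. With both genes required, selected cells were 1.13% of cells at D0 and 0.208% at D5. The cycling share was 47.4%, 52.2% and 24.3% without thinning, 3.16% at D0 with 3 or more UMIs, 0% at D5 without haemoglobin-rich cells and 0% at D19 in XCR1 protein positive cells.

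Counts of genes past 0.5 at D5 against D0, at D19 against D0 and at D19 against D5 were 1011 higher and 751 lower, 1001 and 1299, and 956 and 1495 with genes of 20 or more UMIs. They were 26 and 55, 33 and 65, and 55 and 47 with each cell thinned to 1000 UMIs, where fewer genes could be used. Without each gene's top cell, 211 were higher and 312 lower at D5 and 281 were higher at D19 against D0, and 257 were higher and 470 lower at D19 against D5. In XCR1 protein positive cells 257 were higher and 349 lower at D5, and the balance at D5 turned in both. It also turned with 3 or more Xcr1 and Clec9a UMIs (340 higher and 365 lower), with both genes required (379 and 409) and with thinning.

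The XCR1 protein test called 12 to 132 genes higher and 3 to 63 lower with 1 library left out, the lowest without D0. It called 47 higher and 60 lower without normalization factors, 19 higher and 14 lower without the library block, 28 and 18 with DESeq2, and 25 lower among cells with 2 or more Irf8 UMIs. No named gene of that test changed sign, and 16 of 207 values lost the call. This was partly set in advance, since naming required a DESeq2 call and the same sign in 3 of 3 libraries. Of all 121 called genes, 42 kept the call with DESeq2 and 33 without the library block. Without D0, D5 or D19, 11, 109 and 106 kept it, and fewer genes could be tested there. The depth of 23 and 37 cells at D5 and D19 limits all shares there.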
